A study of Mus musculus with 20 samples.

Results

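Skin carcinomas that arise in mice lacking both Rb1 and Trp53 in stratified epithelia were compared here by histological grade with the genotype held constant. Of the 20 samples of the series, 8 are tumors from RbΔEC; Trp53ΔEC mice, and 7 of these 8 have a single grade in their labels. The undifferentiated/spindle group has 3 members, spindle cell carcinoma 1 and undifferentiated carcinomas 3 and 5, and the poorly differentiated group has 4, tumors 2, 6, 7 and 8. Members were assigned by the genotype and subtype labels. The remaining tumor of this genotype, number 4, is labelled mixed and stayed outside the comparison. The rest of the series holds 7 Trp53ΔEC tumors and 5 normal skin samples, all wild type, of 2 months of age.

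All animals are of the FVB strain. In both tumor genotypes the Cre recombinase runs under the keratin 14 promoter, which is active in the basal cells of stratified epithelia, so both floxed Trp53 alleles are lost in those cells and their progeny, and in the RbΔEC; Trp53ΔEC animals both floxed Rb1 alleles are lost as well. Stroma, vessels and blood cells of the same tumors keep both genes. The wild type skin carries neither deletion. Ages of the tumor-bearing mice are not stated, and no label says that each tumor came from a different animal, so a p-value here reads only how far these arrays spread. Each sample is 1 Affymetrix MOE430 2.0 array of total RNA, and values are log2 expression after robust multi-array averaging (RMA), a method that corrects the background, equalizes the arrays and summarizes the probes of each probeset.

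A stratified epithelium is held together by desmosomes and adherens junctions, tied to the basement membrane by hemidesmosomes, and filled with keratin filaments whose composition changes as cells move from the basal layer to the surface. Transcription factors such as p63, the grainyhead-like factors and the Ets factors keep this program running. In the epithelial-mesenchymal transition (EMT), zinc-finger repressors of the Snail and Zeb families bind E-box sequences and silence epithelial genes while mesenchymal genes are made. Poorly differentiated squamous carcinomas keep part of the epidermal program, and spindle cell carcinomas are elongated cells with little of it.

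The targeted genes were read first. *Rb1* was at 8.14 in the spindle tumor, 8.03 and 8.02 in the undifferentiated tumors 3 and 5, 7.53, 7.15, 7.26 and 6.88 in poorly differentiated tumors 2, 6, 7 and 8, and 6.55 in mixed tumor 4, against 8.95 to 9.26 in normal skin. The sources used here do not say whether its probeset lies inside the deleted part, so the level does not check the genotype. Between grades *Rb1* rose by 0.86 (standard error 0.17, adjusted p = 0.0148, limma), but the call was lost without tumor 1 (adjusted p = 0.0572) or 5 (0.0512) and with the median of its probesets (0.45, adjusted p = 0.058). *Trp53* was not analysed here. Array medians of the 8 tumors lay between 5.68 and 5.73. The *Actb* control probesets, which read RNA degradation as the log2 difference between the 3′ and the 5′ end of the transcript, gave 0.24 to 0.33 in undifferentiated/spindle and 0.42 to 0.82 in poorly differentiated tumors, so this measure moved with grade, and its part in the results was not tested. *Xist*, made from the inactive X chromosome of females, was at 5.75, 5.97 and 6.12 in tumors 1, 3 and 6 and at 11.16 or more in the other 4 tumors compared, so each grade held tumors of both patterns.

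At an adjusted p under 0.05 (limma, two-sided, Benjamini-Hochberg), 1488 of 18193 genes were higher in undifferentiated/spindle tumors, which is 8.18%, and 1336 were lower, which is 7.34%. At an unadjusted p under 0.05 the counts were 2936 and 2394. The falls were deeper than the rises, with 202 genes lower by over 4 log2 units and 22 higher by as much. The median log2 fold change was 1.26 over the genes that rose, −1.81 over those that fell and 0.04 over all genes. All 3 undifferentiated/spindle tumors lay above all 4 poorly differentiated ones in 2786 genes (15.3%) and below them in 2287 (12.6%). In these bulk samples fewer cells of a type and less RNA per cell cannot be told apart.

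Tumors of the same grade were close to each other. The Pearson distance, 1 minus the correlation over all probesets, was 0.0225 to 0.0257 among the 3 undifferentiated/spindle tumors, 0.0186 to 0.0411 among the 4 poorly differentiated ones, and 0.0642 to 0.1062 between tumors of different grade. The mean was 0.0301 within and 0.0842 between grades. In an exact permutation test over the 35 regroupings of 3 and 4 tumors, one-sided, this gap of 0.0541 gave p = 0.0286, which is the lowest value possible.

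The regulators that keep cells epithelial fell as a group. Of 18 measured epithelial transcription and splicing regulators, 16 fell in undifferentiated/spindle tumors and none rose, against 7.34% of all genes lower, with a median log2 fold change of −4.07 (0.04 over all genes). They were the p63 gene *Trp63*, *Ovol1* and *Ovol2*, the grainyhead-like genes *Grhl1*, *Grhl2* and *Grhl3*, the Ets factors *Ehf* and *Elf3*, the splicing regulators *Esrp1* and *Esrp2*, the Krüppel-like factors *Klf4* and *Klf5*, *Tfap2a*, *Tfap2c*, *Zfp750* and *Foxn1*. The other 2, *Elf5* and *Spdef*, did not pass the test.

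*Trp63*, required for the basal layer of all stratified epithelia, was at 6.27 in the spindle tumor, 4.90 and 3.68 in undifferentiated tumors 3 and 5, and 12.23, 11.72, 11.86 and 11.97 in poorly differentiated tumors 2, 6, 7 and 8. The lowest poorly differentiated tumor was thus far above the highest of the other grade, and the gene fell by 7.0 on the log2 scale (standard error 0.54, adjusted p = 0.000459, limma). In the same order of tumors, which is kept from here on, *Ehf* was at 3.98, 3.62 and 4.61 against 9.92, 9.91, 9.87 and 10.06. The 4 poorly differentiated tumors lay close together and far above the other grade, and *Ehf* fell by 5.87 (standard error 0.23, adjusted p = 3.09e-05). *Esrp1*, which sets epithelial splice forms of receptors and adhesion proteins, was at 6.17, 4.19 and 4.92 against 11.05, 11.07, 11.31 and 11.80. The groups did not overlap, and *Esrp1* fell by 6.21 (standard error 0.45, adjusted p = 0.000339).

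Of these 16 regulators, 7 have a promoter window in the RefSeq table used here (GRCm38.p6, 250 bases before to 50 bases after the start of the gene). The windows were searched for the E-box CACCTG and its reverse complement CAGGTG, the letters that the Snail and Zeb repressors are known to read. Such a match stood in 3 of the 7 windows and in 6640 of all 32851 windows, which is 20.2%. Of the 3 windows with a match, the pair whose genes fell the most is shown, with the E-boxes in capitals. The match was thus part of the choice, and the windows without one belong to genes that fell as well. *Grhl3*, a driver of epidermal barrier formation, lies on the minus strand, its window is chr4:135573583-135573882, and its E-boxes begin at −19 and 9 relative to the start site. *Elf3*, an epithelial Ets factor, lies on the minus strand as well, its window is chr1:135258423-135258722, and its E-box begins at −140.
Grhl3: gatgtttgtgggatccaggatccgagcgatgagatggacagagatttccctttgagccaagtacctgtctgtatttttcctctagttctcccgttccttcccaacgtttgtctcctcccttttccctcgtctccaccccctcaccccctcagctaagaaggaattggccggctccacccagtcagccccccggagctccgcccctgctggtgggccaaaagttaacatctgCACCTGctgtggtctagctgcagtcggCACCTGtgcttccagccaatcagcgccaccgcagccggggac
Elf3: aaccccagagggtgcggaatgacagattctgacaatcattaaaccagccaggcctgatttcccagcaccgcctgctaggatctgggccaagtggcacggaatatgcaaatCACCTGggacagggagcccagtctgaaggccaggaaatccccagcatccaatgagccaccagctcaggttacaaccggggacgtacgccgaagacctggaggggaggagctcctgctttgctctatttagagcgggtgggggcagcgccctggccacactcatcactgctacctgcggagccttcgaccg

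*Grhl3* was at 3.92, 3.88 and 3.53 in undifferentiated/spindle tumors and at 8.63, 9.44, 9.40 and 10.01 in poorly differentiated ones. It fell by 5.59 (standard error 0.31, adjusted p = 0.000122, limma). *Elf3* was at 5.60, 5.53 and 5.74 against 6.63, 7.45, 7.55 and 7.34 and fell by 1.62 (standard error 0.23, adjusted p = 0.0045). In both genes every undifferentiated/spindle tumor lay below every poorly differentiated one. The match of letters is a description of the windows and no measurement of binding.

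**Figure D1:**
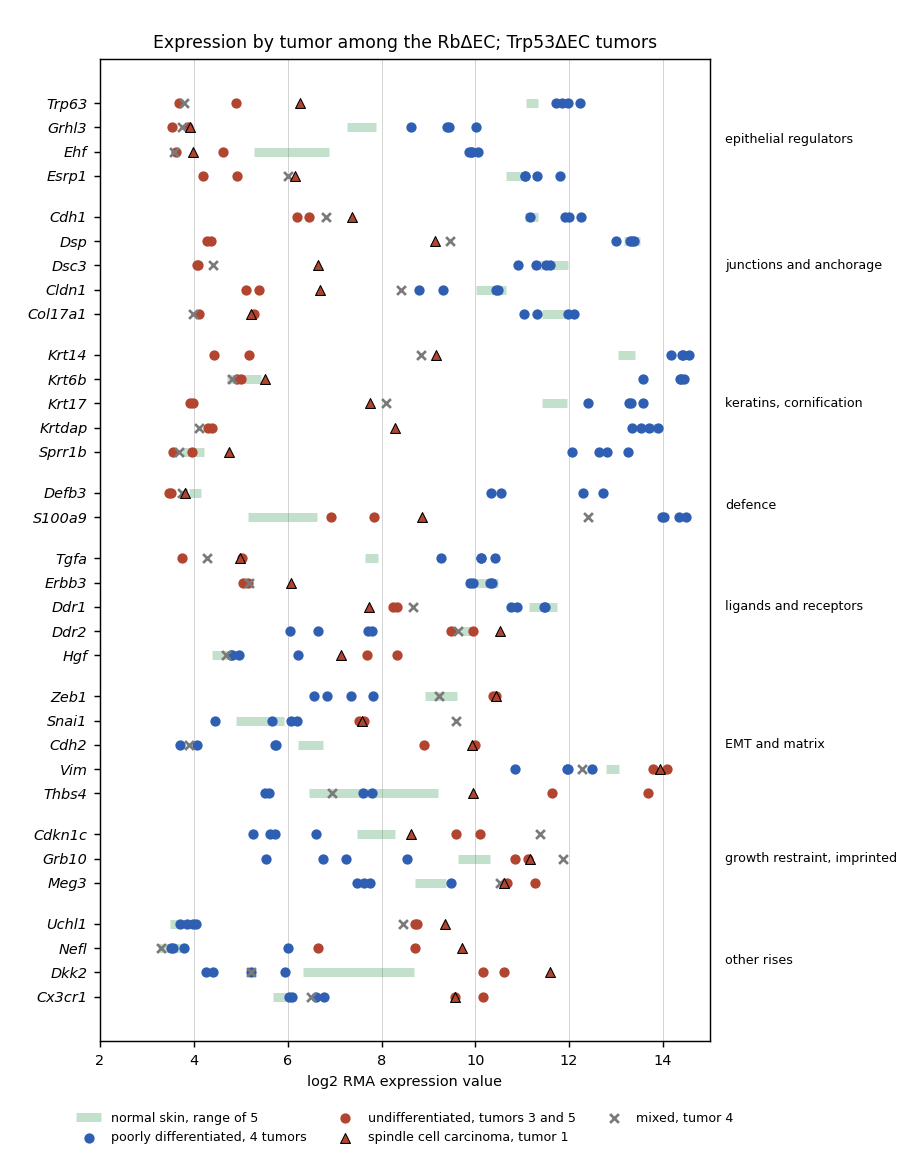
Log2 RMA expression of 33 genes (x axis) in each RbΔEC; Trp53ΔEC tumor: blue circles are poorly differentiated tumors, red circles undifferentiated tumors 3 and 5, the red triangle spindle tumor 1, the grey cross mixed tumor 4, and the green bar the range of 5 normal skin samples. The blue circles of *Trp63* lie between 11.72 and 12.23 with all red symbols at 6.27 or below, and the order is turned for *Uchl1*, where the blue circles lie between 3.70 and 4.04.

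Transcripts of genes whose proteins join epithelial cells were lower as well. Of 14 desmosome genes 13 fell, with a median log2 fold change of −4.78. The desmoplakin gene *Dsp*, which ties desmosomes to keratin, was at 9.13, 4.37 and 4.28 against 13.35, 13.39, 12.99 and 13.30. The spindle tumor held an intermediate level and the undifferentiated tumors the lowest, and *Dsp* fell by 7.33 (standard error 1.12, adjusted p = 0.00587, limma). Desmocollin 3 (*Dsc3*) was at 6.64, 4.08 and 4.07 against 11.60, 11.51, 10.91 and 11.29, and fell by 6.40 (adjusted p = 0.000946). *Perp*, a p53 target whose product sits in desmosomes, fell by 6.38 (standard error 0.66, adjusted p = 0.00122).

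Among 15 genes of classical cadherins, catenins and nectins, 4 fell (7 without tumor 2) and 2 rose (1 without tumor 3 or 8). The shares over all genes were 7.34% lower and 8.18% higher. E-cadherin (*Cdh1*), the adhesion protein of epithelial adherens junctions, was at 7.36, 6.20 and 6.45 against 11.17, 11.99, 11.92 and 12.26, a fall of 5.16 (standard error 0.35, adjusted p = 0.000282, limma). P-cadherin (*Cdh3*) fell by 2.10 (adjusted p = 0.00519). N-cadherin (*Cdh2*), which mesenchymal and neural cells use, was at 9.92, 9.99 and 8.90 against 5.73, 5.75, 4.07 and 3.71, a rise of 4.79 (standard error 0.59, adjusted p = 0.00246). The groups of neither *Cdh1* nor *Cdh2* overlapped, and mixed tumor 4 was at 6.82 for *Cdh1* and at 3.90 for *Cdh2*, so it was low in both cadherins.

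Of 15 tight junction genes 6 fell, against 7.34% of all genes. Among the 6 was the claudin 1 gene *Cldn1*, a barrier component, at 6.69, 5.39 and 5.11 against 8.81, 9.31, 10.44 and 10.48 (log2 fold change −4.03, standard error 0.54, adjusted p = 0.00349, limma). Among poorly differentiated tumors, numbers 7 and 8 were higher than numbers 2 and 6. Occludin (*Ocln*) fell by 2.72 (adjusted p = 0.00757), and the epithelial adhesion molecule gene *Epcam* fell by 5.74 (adjusted p = 0.00285). Of 9 hemidesmosome and anchoring genes 6 fell, beside the same share over all genes. The transmembrane collagen gene *Col17a1* was at 5.22, 4.11 and 5.29 against 12.10, 11.97, 11.04 and 11.31 and fell by 6.73 (standard error 0.38, adjusted p = 0.00013). *Lama3*, a chain of the epidermal laminin, fell by 5.26 (standard error 0.43, adjusted p = 0.00053).

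Keratins fell in part. Of 23 measured keratins 10 fell and none rose, against 7.34% of all genes lower, with a median log2 fold change of −2.27. *Krt14*, the basal keratin whose promoter drives the Cre recombinase, was at 9.16 in the spindle tumor, 5.18 and 4.43 in the undifferentiated tumors, and 14.43, 14.56, 14.18 and 14.41 in the poorly differentiated ones, a fall of 8.14 (standard error 1.02, adjusted p = 0.0027, limma). Normal skin was at 13.05 to 13.41. Its partner *Krt5* fell by 7.29 (adjusted p = 0.00194), with 9.04 in the spindle tumor and 5.41 and 5.45 in the undifferentiated ones.

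The largest fall of any gene that passed the test with groups apart was that of *Krt6b*, a keratin made in wounds and hair follicles, at 5.51, 5.01 and 4.92 against 14.39, 14.45, 13.57 and 14.35. It fell by 9.04 (standard error 0.26, adjusted p = 1.73e-05, limma) and ended near the level of normal skin (4.72 to 5.42). The related stress keratin *Krt16* fell by 8.06 (standard error 0.54, adjusted p = 0.000276). *Krt17*, a hair follicle and stress keratin, was at 7.75, 3.91 and 3.98 against 12.41, 13.28, 13.31 and 13.58, and fell by 7.93 (standard error 0.92, adjusted p = 0.00193). The suprabasal keratins *Krt1* and *Krt10*, which mark cells leaving the basal layer, varied within the poorly differentiated group and did not pass. *Krt1* was at 8.94, 5.0 and 5.07 against 12.77, 13.24, 6.84 and 12.68 (adjusted p = 0.0992). Poorly differentiated tumor 7 lay below the spindle tumor, and without it *Krt1* passed (log2 fold change −6.56, adjusted p = 0.0152).

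Cornified envelope and barrier genes had the deepest median of the lists other than the keratinocyte markers, −5.77, and 22 of 27 fell. *Sprr1b*, a small proline-rich precursor of the envelope that is induced in stress, was at 4.76, 3.95 and 3.56 against 12.64, 13.26, 12.06 and 12.80. No undifferentiated/spindle tumor came near the poorly differentiated range, and *Sprr1b* fell by 8.60 (standard error 0.36, adjusted p = 3.99e-05, limma). Involucrin (*Ivl*), an envelope scaffold, was at 5.05, 3.84 and 3.78 against 9.42, 10.24, 10.23 and 10.32, a fall of 5.83 (adjusted p = 0.0002). *Krtdap*, a secreted differentiation protein, was at 8.30, 4.29 and 4.38 against 13.33, 13.71, 13.54 and 13.90, a fall of 7.97 (adjusted p = 0.00197). Loricrin (*Lor*), the main envelope protein of normal skin, did not pass the test (8.77, 6.24 and 6.44 against 10.92, 12.15, 7.03 and 11.11, adjusted p = 0.141), and did pass without tumor 7 (log2 fold change −4.24, adjusted p = 0.0181).

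Several of these genes stand next to each other on the chromosome. In the epidermal differentiation complex of chromosome 3, taken from *S100a1* to *S100a10*, 27 of 49 measured genes fell (55.1%) and 3 rose, with a median log2 fold change of −3.41. Of the kallikrein proteases of chromosome 7 from *Klk14* to *Klk4*, which cut corneodesmosomes when the surface is shed, 9 of 10 fell with a median of −4.77. *Klk7* was at 7.58, 6.04 and 6.72 against 11.45, 11.58, 12.77 and 13.50 (log2 fold change −5.55, adjusted p = 0.00131, limma). In the Serpinb cluster of chromosome 1, protease inhibitors of epithelial cells, 6 of 7 fell with a median of −3.99, and *Serpinb5*, the maspin gene, fell by 6.52 (adjusted p = 0.00125). The keratin clusters themselves, which also hold hair and simple-epithelial keratins, had fewer. In the type II cluster 6 of 24 genes were lower and in the type I cluster 4 of 36, against 7.34% of all genes.

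All 14 measured alarm and antimicrobial genes of the epidermis passed as lower, and 12 or 13 when 1 tumor was left out, with a median log2 fold change of −4.46. The beta-defensin gene *Defb3*, whose peptide kills bacteria, was at 3.81, 3.47 and 3.52 against 10.34, 10.54, 12.30 and 12.71, with normal skin at 3.90 to 4.14. It fell by 7.87 (standard error 0.60, adjusted p = 0.000459, limma), and poorly differentiated tumors 7 and 8 were the highest. *S100a9*, a calprotectin subunit that neutrophils also make, was at 8.86, 7.83 and 6.92 against 13.98, 14.03, 14.50 and 14.35, a fall of 6.34 (standard error 0.42, adjusted p = 0.000256). Mixed tumor 4 was at 12.41, between the grades. *Lcn2*, an iron-binding defence protein, was at 5.19, 4.26 and 9.19 against 10.27, 9.31, 13.38 and 12.22. Its undifferentiated tumor 5 came close to poorly differentiated tumor 6, and its fall of 5.08 was just past the threshold (adjusted p = 0.049). Leaving out tumor 1, 2, 3, 7 or 8 gave adjusted p-values of 0.147, 0.0596, 0.154, 0.107 and 0.115.

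**Figure D2:**
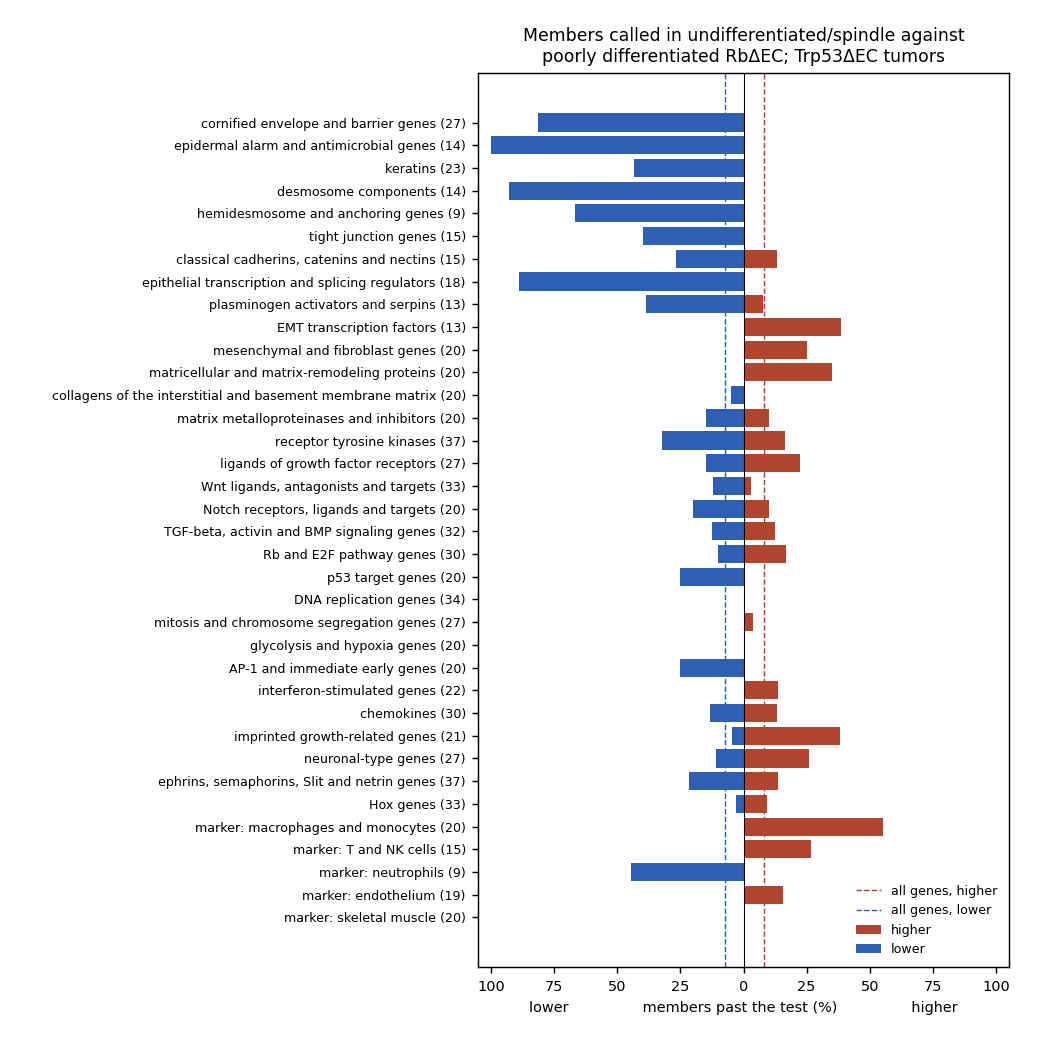
Share of measured members (in parentheses after each list name) that passed the test in undifferentiated/spindle against poorly differentiated RbΔEC; Trp53ΔEC tumors, in percent, with lower members drawn to the left in blue and higher members to the right in red. Dashed lines mark the shares over all genes, 7.34% lower and 8.18% higher, and the antimicrobial list reaches the left end of the axis with 14 of 14 lower.

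Among 13 EMT transcription factors, 5 rose and none fell, against 8.18% of all genes higher, with a median log2 fold change of 1.61. *Zeb1*, a repressor of E-cadherin, was at 10.43, 10.45 and 10.38 against 7.82, 7.35, 6.83 and 6.57. The 3 undifferentiated/spindle tumors were nearly equal and the poorly differentiated ones spread below them, and *Zeb1* rose by 3.28 (standard error 0.29, adjusted p = 0.000683, limma). *Snai1*, the Snail repressor, was at 7.58, 7.62 and 7.53 against 6.19, 6.08, 5.67 and 4.45, a rise of 1.98 (standard error 0.40, adjusted p = 0.0172). The *Snai1* call was lost without tumor 1, 3 or 5 (adjusted p = 0.0561 to 0.0608). *Zeb2* rose by 1.61 (adjusted p = 0.0415), a call that only leaving out tumor 2 kept (0.0808 to 0.139 without any other tumor, with log2 fold changes of 1.41 to 1.76), and *Prrx2* and *Tcf4* rose as well.

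The other 8 EMT factors did not pass. *Snai2*, the Slug gene, was highest in poorly differentiated tumor 2, with 9.91, 11.53 and 10.20 against 12.82, 11.82, 11.49 and 11.33 (log2 fold change −1.32, adjusted p = 0.119, limma). *Twist1* was at 8.77, 9.20 and 8.91 against 8.21, 8.49, 6.07 and 5.16 (log2 fold change 1.98, adjusted p = 0.153), so poorly differentiated tumors 2 and 6 were near the other grade and tumors 7 and 8 far below. The count of EMT factors that rose was 2 without tumor 1, 3 or 5, 3 without tumor 7 or 8 and 6 without tumor 2. Of 9 EMT genes that were chosen by grade on samples that include these, 7 rose here, and of 13 epithelial genes chosen in the same way 12 fell. Without tumor 1 or 5 the 7 became 4. The counts of those lists are not independent evidence of direction.

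Mesenchymal genes were high in both grades and rose in part. Of 20 mesenchymal and fibroblast genes 5 rose and none fell, against 8.18% and 7.34% of all genes, with a median of 1.52. Vimentin (*Vim*), the intermediate filament of mesenchymal cells, was at 13.94, 13.78 and 14.08 against 12.49, 11.97, 11.96 and 10.85, a rise of 2.12 (standard error 0.36, adjusted p = 0.00868, limma). Fibronectin (*Fn1*), a matrix glycoprotein, was at 13.18, 13.72 and 13.56 against 11.74, 11.75, 10.63 and 8.93, a rise of 2.73 (adjusted p = 0.0341) that did not pass without tumor 1, 3, 5 or 7 (0.0788 to 0.107). In both genes poorly differentiated tumor 8 was the lowest, and the mean level of this list ran from 8.30 to 10.80 across the poorly differentiated tumors against 11.04 to 11.43 in the other grade. The count of 5 was 8 without tumor 2, 2 without tumor 1 and 1 without tumor 3, 5 or 7.

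Of 20 collagens of the matrix 0 passed upward, although 6 did when tumor 2 was left out. The median log2 fold change of the list was 0.99, against 0.04 over all genes. *Col6a3* was at 12.35, 12.64 and 12.79 against 12.23, 11.53, 10.86 and 10.02 (log2 fold change 1.44, standard error 0.48, adjusted p = 0.0911, limma). Tumor 2 was close to the spindle tumor, and without it the difference was 1.79 (adjusted p = 0.0235). *Col12a1*, which decorates fibrils, was the 1 collagen that fell, by 2.24 (standard error 0.37, adjusted p = 0.00773). Of 20 matricellular and matrix-remodeling genes 7 rose (4 without tumor 5 or 7), against 8.18% of all genes higher, with a median of 1.65. Thrombospondin 4 (*Thbs4*) was at 9.94, 13.68 and 11.63 against 7.61, 5.61, 7.80 and 5.52, a rise of 5.12 (standard error 0.97, adjusted p = 0.0131), and the spindle tumor was the lowest of its group. The lysyl oxidase family gene *Loxl3* rose by 3.35 (adjusted p = 0.0118) and the proteoglycan gene biglycan (*Bgn*) by 2.22 (adjusted p = 0.0123).

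Of 20 matrix metalloproteinases and inhibitors 2 were higher and 3 lower, against 8.18% and 7.34% of all genes, and the counts were 1 and 1 without tumor 1, 3, 7 or 8. *Mmp9*, a gelatinase, was at 8.71, 8.86 and 8.42 against 11.69, 10.68, 12.24 and 12.07, a fall of 3.01 (standard error 0.37, adjusted p = 0.00245, limma). *Mmp13*, a collagenase, was at 7.58, 8.20 and 11.20 against 12.33, 12.15, 12.10 and 11.75, a fall of 3.09 (adjusted p = 0.0396) that passed only with all tumors or without tumor 5 (adjusted p = 0.0694 to 0.13 otherwise). Undifferentiated tumor 5 came close to the poorly differentiated range in *Mmp13*, and all 7 tumors were far above normal skin (3.30 to 3.80).

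Of 37 measured receptor tyrosine kinases, 12 fell and 6 rose (3 rose without tumor 6 or 7), against 7.34% and 8.18% of all genes. The falls included the ErbB receptors *Erbb2* and *Erbb3*, the fibroblast growth factor receptors *Fgfr2* and *Fgfr3*, the macrophage-stimulating protein receptor *Mst1r*, the collagen receptor *Ddr1* and 6 Eph receptors, and the rises were *Fgfr1*, *Pdgfra*, *Axl*, *Mertk*, *Ddr2* and *Ror2*. *Erbb3*, which binds neuregulins and signals with ErbB2, was at 6.08, 5.14 and 5.06 against 10.35, 9.88, 9.95 and 10.32, a fall of 4.70 (standard error 0.27, adjusted p = 0.000148, limma). Levels of *Egfr* were 8.30, 8.78 and 7.63 against 8.69, 8.57, 8.98 and 9.30, and this gene did not pass (log2 fold change −0.65, adjusted p = 0.201).

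Within some families a member fell while another rose. Both discoidin domain receptors bind collagen, and *Ddr1*, the epithelial one, was at 7.73, 8.25 and 8.34 against 10.88, 10.76, 11.49 and 11.46, a fall of 3.04 (standard error 0.25, adjusted p = 0.00053, limma). *Ddr2*, the mesenchymal one, was at 10.53, 9.49 and 9.95 against 7.72, 7.80, 6.05 and 6.64, a rise of 2.94 (standard error 0.48, adjusted p = 0.00743). *Fgfr2*, made in epithelia, fell by 3.02 (adjusted p = 0.00664), while *Fgfr1* was at 10.36, 11.69 and 10.72 against 9.71, 8.94, 8.97 and 9.08, a rise of 1.75 (adjusted p = 0.0148). *Pdgfra*, the platelet-derived growth factor receptor of fibroblasts, was at 12.32, 12.18 and 12.16 against 10.81, 9.58, 9.79 and 7.73, a rise of 2.74 (adjusted p = 0.0283), which was lost without tumor 1, 3, 5, 6 or 7 (0.0532 to 0.0864). *Axl*, a receptor for the bridging protein Gas6, was at 11.61, 11.46 and 14.05 against 9.28, 9.92, 10.28 and 9.67, a rise of 2.58 (adjusted p = 0.0328; 0.0588 to 0.0782 without tumor 2, 6, 7 or 8, and a rise of 1.26 by the median of its probesets), and undifferentiated tumor 5 stood above the others.

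Among 27 ligands of growth factor receptors, 6 rose (*Pdgfc*, *Hgf*, *Igf2*, *Vegfb*, *Vegfc*, *Angpt1*) and 4 fell (*Tgfa*, *Hbegf*, *Epgn*, *Nrg1*), against 8.18% and 7.34% of all genes. Fewer rose without tumor 5 (2) or without tumor 3 or 7 (3), and 2 fell without tumor 3 or 5. All 4 that fell are ligands of ErbB receptors. *Tgfa*, which activates the EGF receptor in an autocrine way in keratinocytes, was at 4.99, 5.02 and 3.75 against 9.28, 10.13, 10.12 and 10.42, a fall of 5.40 (standard error 0.39, adjusted p = 0.000343, limma). Epigen (*Epgn*) fell by 4.89 (adjusted p = 0.00263). *Hgf*, the ligand of the Met receptor that fibroblasts release, was at 7.14, 7.70 and 8.34 against 4.81, 6.22, 4.97 and 4.79, a rise of 2.53 (standard error 0.42, adjusted p = 0.00842). *Pdgfc*, which binds Pdgfra, rose by 2.60 (adjusted p = 0.0175; 0.066 and 0.0656 without tumors 3 and 5). *Angpt1*, a ligand of the endothelial Tie2 receptor, rose by 2.38 (adjusted p = 0.0126), and *Vegfc*, a lymphatic growth factor, rose by 2.48 (adjusted p = 0.0376), a call that held only without tumor 6 among the 7 leave-outs (0.0637 to 0.12 in the rest).

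In the Wnt pathway 1 of 33 genes rose and 4 fell, against 8.18% and 7.34% of all genes. The rise was the largest of any gene that passed with groups apart, that of *Dkk2*, a secreted modulator of Wnt receptors, at 11.60, 10.62 and 10.17 against 5.95, 5.21, 4.41 and 4.26. It rose by 5.84 (standard error 0.49, adjusted p = 0.000567, limma), and normal skin lay between the grades at 6.33 to 8.70. Among the ligand genes, which keratinocytes make, *Wnt4* fell by 3.51 (adjusted p = 0.00128) and *Wnt10a* fell by 2.70 (adjusted p = 0.00195). Among 20 Notch pathway genes, 4 fell (2 without tumor 5) and 2 rose (1 without tumor 2, 3, 5, 6, 7 or 8), beside the same shares over all genes. The Notch ligand gene *Jag2* fell by 2.35 (standard error 0.20, adjusted p = 0.000601). Of 32 genes of TGF-beta, activin and BMP signaling, 4 rose and 4 fell, against 8.18% and 7.34% of all genes, and 1 rose without tumor 3 or 5 and 2 fell without tumor 3 or 7. The BMP antagonist gremlin (*Grem1*) was at 9.35, 11.15 and 11.28 against 8.08, 8.09, 7.99 and 6.68 and rose by 2.88 (adjusted p = 0.0142; 0.0569 and 0.0571 without tumors 3 and 5), while *Id1*, a target of BMP signals, was at 7.97, 7.26 and 8.16 against 10.32, 11.01, 10.63 and 10.59 and fell by 2.84 (adjusted p = 0.000705). The receptor gene *Tgfbr2* rose by 1.28 (adjusted p = 0.00663).

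Few proliferation genes passed, beside shares over all genes of 8.18% higher and 7.34% lower. None of 34 DNA replication genes passed in either direction (median log2 fold change 0.11; up to 2 rose when 1 tumor was left out), and 1 of 27 genes of mitosis and chromosome segregation rose (median 0.43; 0 to 2 when 1 tumor was left out). *Mki67*, a marker of cycling cells, was at 10.42, 10.76 and 10.04 against 11.84, 10.16, 10.05 and 11.14 (log2 fold change −0.39, adjusted p = 0.643, limma). *Top2a*, the topoisomerase of mitotic chromosomes, was at 11.55, 11.25 and 10.85 against 11.54, 10.30, 9.38 and 10.39 (log2 fold change 0.82, adjusted p = 0.306). The groups overlapped in both genes, and all 7 tumors were above normal skin (8.37 to 8.83 for *Mki67*).

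Of 30 Rb and E2F pathway genes, 5 rose (*Rb1*, *E2f6*, *Cdkn1c*, *Cdkn2b*, *Cdkn2c*) and 3 fell (*E2f2*, *Cdkn1a*, *Cdc25b*). The number that rose was 1, 3 and 2 without tumors 1, 3 and 5. Over all genes 8.18% were higher and 7.34% lower, and the median log2 fold change of the list was 0.02. Among the members that passed, cyclin-dependent kinase inhibitors stood on both sides. *Cdkn1c*, which encodes p57, was at 8.63, 9.59 and 10.11 against 6.60, 5.72, 5.62 and 5.25, a rise of 3.65 (standard error 0.42, adjusted p = 0.00192, limma). *Cdkn2b*, which encodes p15, was at 10.53, 9.98 and 10.18 against 8.15, 8.86, 9.32 and 8.48, a rise of 1.53 (adjusted p = 0.013; 0.0501 without tumor 1). *Cdkn1a*, which encodes p21 and has p53-dependent and p53-independent control, was at 9.94, 9.06 and 9.63 against 11.35, 11.40, 12.11 and 12.16, a fall of 2.21 (standard error 0.30, adjusted p = 0.00354).

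*Cdkn2a*, the p16 and p19ARF gene, did not pass (10.15, 10.11 and 10.96 against 8.96, 7.27, 8.97 and 9.29, log2 fold change 1.78, adjusted p = 0.0526, limma; 1.33 and 0.0218 without tumor 6), and in all tumors it was above normal skin (4.01 to 4.29). Of 20 p53 target genes 5 fell and none rose, against 7.34% and 8.18% of all genes, with a median of −0.46. The falls numbered 2 without tumor 1, 3 or 7 and 3 without tumor 5, 6 or 8. With all tumors they were *Cdkn1a*, *Pmaip1*, *Perp*, *Phlda3* and *Ei24*, of which *Perp* is a desmosome protein and is counted in that list too. Among 20 AP-1 and immediate early genes 5 fell (3 without tumor 3 or 7) and none rose, beside the same shares over all genes. The falls included *Fos* (by 2.07, adjusted p = 0.00811) and *Junb* (by 1.45, adjusted p = 0.00111).

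Of 21 imprinted growth-related genes, expressed from 1 parental allele, 8 rose and 1 fell, against 8.18% and 7.34% of all genes, with a median of 0.69. Without tumor 1, 5, 7 or 8, or by the median of each gene's probesets, the rises numbered 5. *Grb10*, an adaptor that restrains insulin and IGF signals, was at 11.16, 11.12 and 10.85 against 8.54, 7.25, 6.75 and 5.54. The undifferentiated/spindle tumors were tight and the poorly differentiated ones spread, and *Grb10* rose by 4.02 (standard error 0.62, adjusted p = 0.00622, limma). The noncoding RNA gene *Meg3* was at 10.61, 10.67 and 11.27 against 9.49, 7.75, 7.47 and 7.63, a rise of 2.77 (adjusted p = 0.0107). The sarcoglycan gene *Sgce* rose by 3.38 (adjusted p = 0.00209) and *Dlk1* by 1.94 (adjusted p = 0.0425; 0.0756 to 0.132 without tumor 1, 2, 5, 7 or 8; a rise of 1.06, not past the test, by the median of its probesets). *Igf2* rose by 0.69 (adjusted p = 0.041), a call lost whichever tumor was left out (0.0536 to 0.129) and by the median of its probesets (0.34, adjusted p = 0.146), whereas mixed tumor 4 was at 14.27 with all other tumors compared at 7.36 or below.

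Of 27 neuronal-type genes 7 rose (*Nefl*, *Cnr1*, *Ncam1*, *Nrcam*, *Dpysl3*, *Uchl1*, *Gria1*) and 3 fell (*Tubb3*, *Chl1*, *Map2*). The rises numbered 2 without tumor 5 and 3 without tumor 1 or 7. Over all genes 8.18% were higher and 7.34% lower, and the median of the list was 0.10. *Uchl1*, a ubiquitin hydrolase abundant in neurons, was at 9.36, 8.71 and 8.76 against 3.70, 4.04, 3.97 and 3.85, with normal skin at 3.49 to 4.05. The poorly differentiated tumors were thus at the level of skin, and *Uchl1* rose by 5.05 (standard error 0.19, adjusted p = 2.76e-05, limma). *Nefl*, a neurofilament gene, was at 9.71, 6.64 and 8.71 against 3.55, 3.79, 3.51 and 6.01, a rise of 4.14 (standard error 0.87, adjusted p = 0.0194; 0.0537 to 0.0735 without tumor 1, 5 or 7). The cannabinoid receptor gene *Cnr1* rose by 4.19 (adjusted p = 0.00665). Neuronal tubulin *Tubb3* fell by 3.36 (adjusted p = 0.0167; 0.0657 and 0.0563 without tumors 3 and 5), so members of the list moved in opposite directions.

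Of 37 guidance genes, the ephrins, semaphorins, Slits and netrins, 5 rose and 8 fell, against 8.18% and 7.34% of all genes. The number that rose was 3 without tumor 3, 5 or 7, and the number that fell 5 without tumor 3 and 1 to 3 without tumor 1, 5, 7 or 8. Netrin 1 (*Ntn1*) was at 11.04, 9.31 and 11.14 against 7.30, 6.77, 7.43 and 6.79, a rise of 3.43 (standard error 0.46, adjusted p = 0.00336, limma), and *Sema7a* rose by 3.03 (adjusted p = 0.00176). Other large rises belonged to no list. *Nrk*, a kinase gene of the X chromosome, was at 8.28, 8.31 and 8.97 against 3.96, 3.99, 3.89 and 3.71, a rise of 4.63 (standard error 0.20, adjusted p = 4.03e-05). *Rcan2*, a calcineurin regulator, rose by 5.0 (adjusted p = 0.000714), the homeobox gene *Lhx8* by 4.98 (adjusted p = 0.0025), and the non-muscle myosin gene *Myh10* by 4.71 (adjusted p = 0.00338).

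Markers of other cell types were counted in the same test. All 10 keratinocyte markers fell, with a median of −6.48. Of these markers 9 belong to lists above as well, so the count largely repeats falls already given. The mean level of the 10 markers was 7.20 in the spindle tumor, 5.32 and 5.51 in the undifferentiated tumors, and 11.61, 12.11, 11.91 and 11.99 in the poorly differentiated ones, against 10.86 to 11.24 in normal skin. The basal keratin genes *Krt14* and *Krt5* were at 5.45 or below in undifferentiated tumors 3 and 5, and what this says of the origin of their cells was not tested.

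Macrophage and monocyte markers rose in 11 of 20 and fell in none, with a median of 2.05, and their mean level was 10.85, 9.92 and 10.39 against 9.13, 8.49, 8.44 and 7.15. The count ran from 7 without tumor 1 or 5 to 14 without tumor 2, beside 8.18% of all genes higher. The fractalkine receptor gene *Cx3cr1* was at 9.57, 10.17 and 9.56 against 6.09, 6.78, 6.60 and 6.03, a rise of 3.39 (standard error 0.25, adjusted p = 0.000385, limma). *C1qa*, the complement component that macrophages secrete, was at 13.03, 12.38 and 12.88 against 10.73, 10.47, 11.22 and 9.42, a rise of 2.31 (adjusted p = 0.0103). *Fcrls* rose by 4.76 (standard error 0.52, adjusted p = 0.00157).

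Neutrophil markers went the other way, with 4 of 9 lower and none higher, 1 to 3 when any 1 tumor was left out. Their mean level was 5.15 to 5.34 in undifferentiated/spindle tumors and 5.68 to 7.03 in poorly differentiated ones. The chemokine receptor gene *Cxcr2*, which guides neutrophils, was at 4.50, 4.51 and 4.19 against 6.50, 7.19, 6.65 and 5.79, a fall of 2.13 (standard error 0.31, adjusted p = 0.00484, limma). *Cxcl3*, a ligand of that receptor, was at 4.89, 3.45 and 4.59 against 9.76, 12.36, 10.04 and 9.32, a fall of 6.06 (standard error 0.74, adjusted p = 0.00235). The macrophage chemokine gene *Ccl3* fell by 3.13 (adjusted p = 0.00423). Chemokines did not fall as a group, since 4 of 30 rose and 4 fell, with a median log2 fold change of 0.22. The shares over all genes were 8.18% higher and 7.34% lower. The chemokines that rose numbered 1 without tumor 5 and 2 without tumor 1, 3 or 7.

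T and NK cell markers rose in 4 of 15 (2 without tumor 1, 5 or 6) and fell in none. *Klrd1*, an NK cell receptor, was at 7.81, 7.62 and 7.50 against 5.29, 4.88, 5.63 and 5.02, a rise of 2.44 (standard error 0.20, adjusted p = 0.000526, limma). Perforin (*Prf1*) was at 8.48, 5.61 and 9.12 against 4.60, 5.09, 4.93 and 4.94, a rise of 2.85 (adjusted p = 0.0458) that passed in 1 of 7 leave-outs, that of tumor 3, with adjusted p-values of 0.0767 to 0.143 in the others. By the median of its probesets the *Prf1* rise was 1.58. Of 22 interferon-stimulated genes 3 rose, among them *Ifit2* (by 3.04, adjusted p = 0.0154; 0.0546 and 0.0594 without tumors 3 and 5). That count was 0 without tumor 3 or 5, 1 without tumor 7 or 8, 6 without tumor 1 and 8 without tumor 2. No B or plasma cell, skeletal muscle or Schwann cell marker passed. Endothelial markers rose in 3 of 19 (0 without tumor 3, 1 without tumor 1 or 7, 5 without tumor 6), and adipocyte markers fell in 3 of 10 (1 without tumor 3, 5, 7 or 8). The shares over all genes, 8.18% higher and 7.34% lower, stand beside each of these counts.

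**Figure D3:**
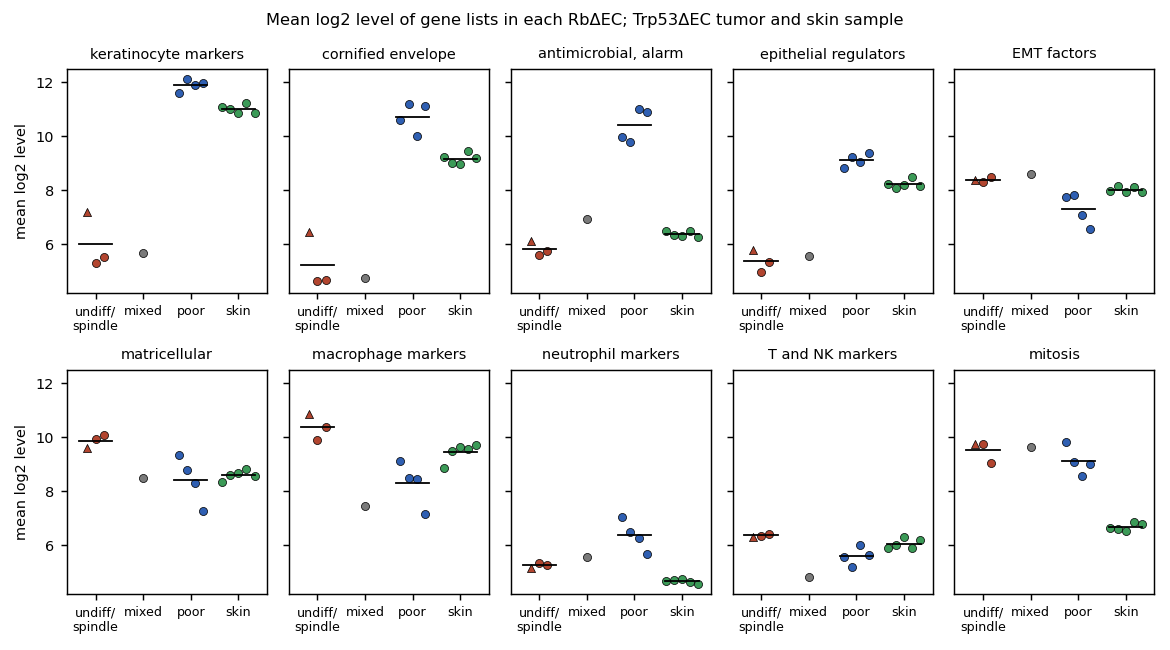
Mean log2 level of the measured members of 10 gene lists (y axis) in the undifferentiated/spindle tumors (red, the triangle is spindle tumor 1), the mixed tumor (grey), the poorly differentiated tumors (blue) and normal skin (green), with 1 symbol per sample and a line at each group mean. Keratinocyte markers sit at 5.32 to 7.20 in the red group and at 11.61 to 12.11 in the blue group, and mitosis genes overlap between the grades.

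The spindle cell carcinoma is 1 tumor, so its values are a description with no test. Of the genes that fell, 38 were over 2 log2 units higher in the spindle tumor than in both undifferentiated tumors and 0 were as far below both. *Krt14*, *Krt5*, *Dsp*, *Krt17* and *Krtdap* are among the 38, with the values given above. The set was called lower in these same tumors, and several members were near the low end of the scale (lowest value 2.34) in the undifferentiated ones. This leaves little room below, so the counts of 38 and 0 cannot be weighed against each other. The spindle tumor also held hair-shaft transcripts. The mean log2 level of 38 keratin-associated protein genes, which cross-link the hair shaft, was 6.36 in the spindle tumor, 4.55 and 4.36 in undifferentiated tumors 3 and 5, 5.0, 5.80, 4.42 and 4.35 in poorly differentiated tumors 2, 6, 7 and 8, and 4.48 to 4.70 in normal skin. For 7 inner root sheath keratins the means were 8.45, 5.01 and 4.76 against 6.75, 7.41, 5.40 and 5.24. Tumors 1, 2 and 6 were therefore the high ones whatever their grade, and no member of either family passed the test. *Krt25*, an inner root sheath keratin, showed this most plainly, at 10.93, 4.38 and 3.80 against 9.06, 10.35, 3.82 and 4.06. These families were chosen after their values were seen.

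Mixed tumor 4 did not sit midway. It was nearer to the undifferentiated/spindle mean in 1006 of the 1336 genes that fell (75.3%) and in 840 of the 1488 that rose (56.5%). Its Pearson distance was 0.0745 to 0.0794 from the undifferentiated/spindle tumors and 0.1002 to 0.1226 from the poorly differentiated ones, so it was farther from both than tumors of 1 grade were from each other. *Krt6b* was at 4.80 and *Trp63* at 3.80 in this tumor, as low as in undifferentiated tumors, while *Cdh2* (3.90), *Dkk2* (5.22) and *Nefl* (3.29) were as low as in poorly differentiated tumors. *Cdkn1c* (11.37), *Grb10* (11.86) and *Snai1* (9.60) exceeded every tumor of both grades.

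The same grades were available in 4 Trp53ΔEC tumors, which share no sample with the comparison above. There the undifferentiated/spindle tumors are numbers 1 and 2 and the poorly differentiated ones numbers 4 and 6. Of the 1488 genes that rose in RbΔEC; Trp53ΔEC tumors 1438 (96.6%) had a positive difference in the Trp53ΔEC tumors, and of the 1336 that fell 1253 (93.8%) had a negative one, where 50.3% of all genes were positive. The median differences of the same genes in Trp53ΔEC tumors were 1.05 and −1.34. *Dkk2* differed by 5.97 and *Trp63* by −6.81 there, close to their values with *Rb1* deleted as well.

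No gene had a grade effect that differed between the genotypes at an adjusted p under 0.05 (limma interaction, 0 of 18193, smallest adjusted p 0.259), while 1283 genes (7.05%) had an unadjusted p under 0.05. The estimates came apart for some members. *Uchl1* differed by 5.05 between grades in RbΔEC; Trp53ΔEC tumors and by 2.52 in Trp53ΔEC tumors. *Plet1*, a hair follicle progenitor marker, fell by 5.97 and differed by −2.74 there, and the retinol dehydrogenase gene *Rdh9* fell by 4.60 and differed by −1.55. The defensin gene *Defb4* was near the floor in all 7 tumors (3.08 to 3.87, log2 fold change −0.54, a fall that passed only with all tumors or without tumor 2) and differed by −4.51 between grades in the Trp53ΔEC tumors. With 2 against 2 tumors in that genotype these differences were not past the test.

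**Figure D4:**
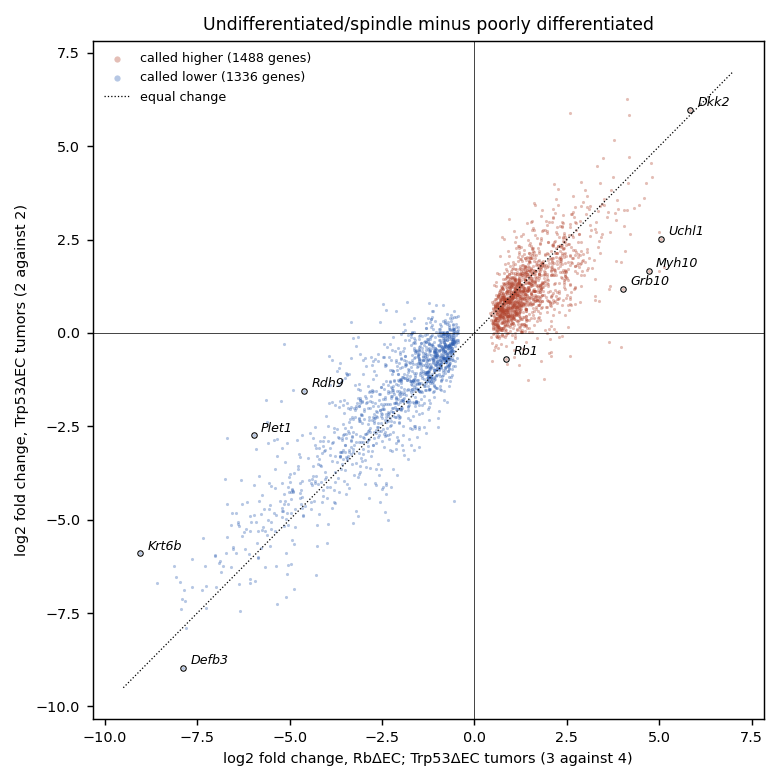
Log2 fold change, undifferentiated/spindle minus poorly differentiated, of the genes that passed the test in RbΔEC; Trp53ΔEC tumors (x axis, 3 against 4 tumors) against the same difference in Trp53ΔEC tumors (y axis, 2 against 2), 1 point per gene, red for the 1488 higher and blue for the 1336 lower genes, with a dotted line of equal change. Most points lie in the quadrants of equal sign, and *Rb1* (0.86 and −0.69) lies in another.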

How the data were processed

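Total RNA of each sample had been hybridised by the authors to 1 Affymetrix MOE430 2.0 array. The deposited values are log2 expression per probeset, background-corrected, normalized and summarized by the authors with RMA (the sources used here name no version). RMA gives the arrays a common distribution, so only relative changes are read, and the number of arrays limits the precision. All sample columns were matched to labelled samples, and 64 of 45101 probesets are array controls and were left out. The annotation gave 1 symbol for 34945 of the remaining 45037, several for 932 and none for 9160, and where a gene had several probesets the brightest on average across the 20 arrays stood for it, giving 18193 genes.

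Groups came from the genotype and subtype labels. Genes were tested with limma 3.58.1 (lmFit and eBayes, R 4.3.3) on the 7 tumors alone, two-sided, adjusted by Benjamini-Hochberg across the 18193 genes and calls at an adjusted p under 0.05. The difference between genotypes was an interaction contrast over the 11 tumors that are not mixed. For a single value 3 against 4 tumors cannot go below a two-sided exact permutation p of 0.0571. On simulated data of the same size, limma recovered 17, 39, 46 and 48 of 50 genes planted at log2 changes of 1, 2, 3 and 4, with 5 false calls. The simulated noise was independent between genes, and far fewer genes were changed than were called here. Rates in the real data can therefore differ. Tables and plots were made in Python 3.11.15 (scipy 1.17.1, numpy 2.4.6, matplotlib 3.10.9, pandas 2.3.3).

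The members and the 50 gene lists (899 of 956 genes matched a measured gene, older symbols included) were chosen with earlier results of these data known. The genes named are the targeted genes, the 12 largest changes each way among genes past the test with groups apart, up to 6 members of each list and the 5 with the smallest interaction p each way. *Elf3*, *Axl*, *Egfr*, *Cdkn2a*, *C1qa*, *Mki67*, *Top2a*, *Ivl*, *Lor*, *Krt1*, *Krt25*, *Klk7*, *Serpinb5*, *Snai2*, *Twist1*, *Fgfr1*, *Vegfc*, *Angpt1*, *Tgfbr2*, *Igf2* and *Xist* were given values outside that rule, after these were seen. The alternatives were the median of a gene's probesets, every probeset, median centring, quantile normalization, leaving out genes with a mean under 5, limma with an intensity trend, all 20 samples in 1 fit, mixed tumor 4 in either grade, the methods' t-test and leaving out each tumor in turn.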

Additional observations from a re-analysis of the deposited data

Results flagged for a closer look

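A tumor counts as standing apart in a group of 4 when its gap to the nearest of the others takes nearly the whole range of the group (Dixon's test at its 95% critical value), which chance gives in about 1 of 20 groups. Among 112 such sets of poorly differentiated RbΔEC; Trp53ΔEC tumors, 15 had 1 tumor apart. Of the genes behind the 15, *Krt1*, *Xist*, *Ivl*, *Cdkn2a*, *Angpt1*, *Gzmd* and *Hmga2* were chosen after their values were seen. The count can therefore not be weighed against the chance rate. Tumor 6 was high in *Dsc2*, a desmocollin, at 12.12 against 8.40 to 9.01 in the other 3, in the laminin gene *Lama3* at 12.11 against 10.53 to 10.70 and in *Hgf* at 6.22 against 4.79 to 4.97, and it was low in *Cdkn2a* at 7.27 against 8.96 to 9.29. The same tumor was high in *Gzmd* at 7.45 against 2.68 to 3.02 and in *Hmga2* at 11.99 against 5.65 to 6.25, and low in *Xist* at 6.12 against 11.16 to 11.53. Tumor 2 was high in *Fgfr2* at 10.93 against 9.09 to 9.18, in *Meg3* at 9.49 against 7.47 to 7.75 and in *Angpt1* at 5.68 against 4.12 to 4.25, and low in *Ivl* at 9.42 against 10.23 to 10.32. Tumor 7 was low in *Krt6b* at 13.57 against 14.35 to 14.45 and in *Krt1* at 6.84 against 12.68 to 13.24. Tumor 8 was low in *Grem1* at 6.68 against 7.99 to 8.09 and high in *Nefl* at 6.01 against 3.51 to 3.79. The values of *Gzmd*, *Krt1* and *Xist* lay within the range of the undifferentiated/spindle tumors, and that of *Hmga2* lay above all 3 of them.

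*Rb1* moved in opposite directions in the genotypes without overlap. It was higher in every undifferentiated/spindle than in every poorly differentiated RbΔEC; Trp53ΔEC tumor (log2 fold change 0.86), and in the Trp53ΔEC tumors, which keep the gene, it was at 7.86 and 7.93 against 8.84 and 8.33 (log2 fold change −0.69). The difference of these effects was 1.54 (unadjusted p = 0.000417, adjusted p = 0.399, limma interaction).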

How the results depend on the processing

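Against 1488 genes higher and 1336 lower, the methods' t-test gave 224 and 358 calls, every probeset 2776 and 2068, and mixed tumor 4 counted as poorly differentiated 325 and 172. With that tumor counted as undifferentiated/spindle 987 genes were higher. Leaving out 1 tumor gave 831 to 1650 higher and 841 to 1482 lower, and the higher count was 937, 901, 831 and 952 without tumors 1, 3, 5 and 8 and the lower count 841 without tumor 5. The other settings stayed within 1.5 times of the reported counts, with 1434 and 1217 by the median of a gene's probesets and 1809 and 1658 with all 20 samples in 1 fit. The interaction count was 2 with all samples in 1 fit and 0 to 18 when 1 tumor was left out (18, 14, 6 and 14 without Trp53ΔEC tumors 1, 2, 4 and 6, and 3 without RbΔEC; Trp53ΔEC tumor 3). The difference in Pearson distance was 0.04915 to 0.06121 without 1 tumor, with exact p-values of 0.0667 to 0.1 that are the smallest those sizes allow. Of 95 genes with values in the text that passed, 89 kept their call under every scaling, probeset and fit setting, 75 when any 1 tumor was left out, 67 with the mixed tumor as undifferentiated/spindle, 24 with it as poorly differentiated, 29 under the methods' t-test and 2 under all of these. The sign turned for *Igf2*, at −0.89 with the mixed tumor as poorly differentiated. The causes were not tested. No paired analysis was possible because no label links a tumor of a group to a tumor of the other. Genes near the low end of the scale, such as *Defb4*, are limited by signal over background, and a log2 difference there understates the change.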

Other observations

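Some rises were confined to part of a grade and so did not pass the test. Granzymes C to G, proteases of cytotoxic lymphocytes that are also made in other settings, had a mean log2 level of 9.68 in the spindle tumor, 3.84 in undifferentiated tumor 3 and 10.55 in undifferentiated tumor 5, with 3.72, 5.54, 3.37 and 3.33 in the poorly differentiated tumors and 3.52 to 3.88 in normal skin. *Gzmd* was at 10.30, 3.13 and 11.30 against 2.98, 7.45, 3.02 and 2.68 (adjusted p = 0.24, limma; 0.0342 without tumor 3). *Hmga2*, an architectural chromatin protein of embryonic tissue, was at 11.94, 10.65 and 11.79 in undifferentiated/spindle tumors and at 6.25, 11.99, 6.08 and 5.65 in poorly differentiated tumors 2, 6, 7 and 8 (adjusted p = 0.128), so tumor 6 was as high as the other grade, and without it the difference passed (5.47, adjusted p = 0.000835). These genes were chosen after their values were seen.

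Runs of neighbouring genes stood out in 1 or several tumors. The search covered only the 8 RbΔEC; Trp53ΔEC tumors, over 11795 genes in chromosome order whose highest value in any tumor was over 7. A run was counted where at least 8 of 10 consecutive genes lay over 1 log2 unit to the same side of the median of the 15 tumors. The 10 genes had to hold at least 8 name stems (the symbol up to its first digit), and 12 runs were found. Of these, 4 are the same stretch of the epidermal differentiation complex on chromosome 3, *Lce3b* to *Them5*, high in each poorly differentiated RbΔEC; Trp53ΔEC tumor (medians of 2.09 to 3.99) and in a poorly differentiated Trp53ΔEC tumor (4.25). Another, *Mcpt2* to *Gzmb* on chromosome 14, holds the granzymes and was high in tumors 1 (median 3.26) and 5 (3.98). In mixed tumor 4, 20 genes of chromosome 10 from *Lrig3* to *Gli1* had a median deviation of 4.04, with the next tumor at 0.31. *Cdk4* was at 14.43 and *Gli1* at 13.98 there, and the hedgehog target genes *Ptch1* (13.80) and *Hhip* (12.47), which lie on other chromosomes, were high in the same tumor. In poorly differentiated tumor 6, 22 genes of chromosome 7 from *Pkp3* to *Cd151* had a median of 2.65, with the next tumor at 0.35. In undifferentiated tumor 3, 4 runs of chromosome 8 were high, with medians of 2.01, 2.3, 2.21 and 1.26, and the last, from *Adam9* to *Brf2*, holds *Fgfr1*, which was at 11.69 in this tumor against 10.36 and 10.72 in tumors 1 and 5. Another run of that chromosome, from *Fbxo8* to *Tmem192*, was low (−1.45, with a Trp53ΔEC mixed tumor next at −1.01). DNA copy number was not analysed here.

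Chromosomes differed in their share of genes that rose with loss of differentiation. On chromosome 3 it was 18% (164 of 913) and on the X chromosome 16.4% (101 of 617), against 8.18% over all genes, while on chromosome 8 it was 3% (28 of 932) and on chromosome 10 it was 3.84% (33 of 860). The median deviation of X chromosome genes was 0.47 in undifferentiated tumor 5, and that of chromosome 8 was 0.46 in poorly differentiated tumor 8. These shares are a description, and neighbouring genes are not independent.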
